A study of Mus musculus with 6 samples.

Results

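The interleukin-1 (IL-1) family genes followed here were 10 genes: the ligands *Il1a*, *Il1b*, *Il18* and *Il33*, the receptor chains *Il1r1*, *Il1rap* and *Il1rl1*, and the receptor-associated kinases *Irak1*, *Irak2* and *Irak4*. They were chosen by name from the 24421 genes listed for each library, and 8 of the 10 reached the mean level required for a test. RNA of astrocytes from the hippocampus was compared 2 days after an intraperitoneal injection of PBS or of diphtheria toxin (DT; 50 µg/kg), with 3 libraries per group. All mice, controls included, were adult male Siglech dtr/dtr animals on a C57BL/6 background, in which the DT receptor is expressed from the *Siglech* locus, a gene of microglia, so that DT ablates microglia. Each library was made from the pooled hippocampi of 2 mice, and the pools came from independent experiments. CD11b+ cells were first removed on magnetic beads, and astrocytes were then taken with beads against astrocyte cell surface antigen-2. Mice without the receptor that were given DT are not analysed here, so an effect of DT itself cannot be told apart from that of the ablation.

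IL-1α and IL-1β bind the receptor IL-1R1, which then recruits the accessory chain encoded by *Il1rap*. The adaptor MyD88 and the kinases IRAK4, IRAK1 and IRAK2 gather at the inner side of the receptor and, through TRAF6, activate NF-kappa B and stress kinases. IL-33 signals through the chain encoded by *Il1rl1*, also known as ST2, with the same accessory chain, and IL-18 uses a separate receptor pair. In the brain, microglia are a well-known source of IL-1, and IL-33 is stored in the nuclei of glial cells and released on damage.

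The libraries held 21704891 to 32933975 reads in genes. *Siglech* had 21, 71 and 42 reads in the PBS libraries and 0 in each DT library. The summed level of 10 astrocyte markers in CPM, the read count scaled to the size of the library, lay between 56279 and 60727 in the PBS group and between 60081 and 66999 in the DT group, far above those of any other cell type examined, and none of these markers was at 0. *Gfap*, which marks reactive astrocytes, averaged 1017 ± 114 CPM in the PBS group and 3859 ± 348 CPM in the DT group (mean ± SD, n = 3, as for all values given in this form). The 13 microglial markers summed to 255 to 292 CPM in the PBS libraries and to 142 to 163 CPM in the DT libraries. All 13 values were lower after DT, and 8 of them passed the test as lower. *Sall1* held a large part of both sums and hardly differed, with means of 79.2 and 77.1 CPM in the PBS and DT groups. *Cx3cr1*, by contrast, averaged 18.1 and 2.23 CPM, so the sums understate the difference of most of these markers. The 8 markers of macrophages at the borders of the brain summed to 38.8 to 59.6 CPM and to 96.7 to 111 CPM, and 3 of the 7 tested passed as higher. In bulk libraries of this kind, fewer cells of a type and less RNA per cell cannot be told apart.

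Of the 8 members tested, *Il1r1* was the only one to pass the threshold (limma on log2(CPM + 0.1), adjusted p below 0.05 over 15137 genes), and it was higher after DT. Of all genes tested, 0.555% passed as higher and 0.159% as lower, or 0.713% in either direction. No member passed as lower. The values of 2 members were higher and those of 6 were lower in the DT group. The median of their log2 fold changes was -0.15, against -0.01 over all genes tested. The groups did not overlap for *Il1r1*, *Irak2* and *Irak4*, which are 3 of 8 members, while they did not overlap for 16.3% of all genes tested. DT values were the higher ones for *Il1r1* and *Irak4* (8.75% of all genes tested) and the lower ones for *Irak2* (7.57%).

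*Il1r1*, the signalling receptor for IL-1α and IL-1β, lies at chr1:40225080-40317257 on the plus strand (mm10, GENCODE M21), within a run of IL-1 receptor genes that starts with *Il1r2* and goes on with *Il1rl2*, *Il1rl1*, *Il18r1* and *Il18rap*. The gene model *Gm38070* overlaps it on the same strand. The 250 bases before its 2 start sites in RefSeq (GRCm38.p6, plus strand) are shown because this gene carried the one call among the members, and those before the neighbouring *Il1rl2*, the receptor for IL-36, because its reads were found in DT libraries alone. Capitals mark a match to the NF-kappa B consensus.
Il1r1, first start, chr1:40224830-40225079: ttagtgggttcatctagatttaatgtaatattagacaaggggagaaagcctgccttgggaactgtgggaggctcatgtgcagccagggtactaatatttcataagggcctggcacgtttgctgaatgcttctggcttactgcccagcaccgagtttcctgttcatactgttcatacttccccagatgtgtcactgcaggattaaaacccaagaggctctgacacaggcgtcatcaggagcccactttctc
Il1r1, second start, chr1:40266336-40266585: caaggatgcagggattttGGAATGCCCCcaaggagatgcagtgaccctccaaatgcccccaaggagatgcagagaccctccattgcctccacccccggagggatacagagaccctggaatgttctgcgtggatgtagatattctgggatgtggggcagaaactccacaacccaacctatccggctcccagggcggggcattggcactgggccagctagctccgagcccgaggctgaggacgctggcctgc
Il1rl2, chr1:40324339-40324588: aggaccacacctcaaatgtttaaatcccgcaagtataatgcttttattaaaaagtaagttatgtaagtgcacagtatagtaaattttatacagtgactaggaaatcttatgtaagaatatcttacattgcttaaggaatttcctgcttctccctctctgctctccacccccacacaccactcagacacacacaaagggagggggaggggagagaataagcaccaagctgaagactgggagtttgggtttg
The first *Il1r1* window and that of *Il1rl2* lay outside genes, and the second *Il1r1* window lay inside *Il1r1* without touching an exon. Windows of 250 bases before 32851 RefSeq starts were searched on both strands for the NF-kappa B consensus, for the STAT motif TTCNNNGAA and for the AP-1 motif TGANTCA. The second *Il1r1* window held an NF-kappa B match, GGAATGCCCC, at 232 bases before the start, and 3.899% of all windows held one. No other window of a member held an NF-kappa B or STAT match, and the shares of all windows with a STAT or an AP-1 match were 7.02% and 6.75%. An AP-1 match, TGACTCA, lay 12 bases before the start of *Il1a*, and a STAT match, TTCAAGGAA, lay 111 bases before that of the decoy receptor gene *Il1r2*. These matches describe the letters of the windows, and binding was not measured here.

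The level of *Il1r1* was 13.5, 9.77 and 10.7 CPM in the PBS libraries and 27.5, 27.4 and 24.9 CPM in the DT libraries. Every DT library thus lay above every PBS library, and the spread within a group was small beside the gap between the groups. The counts behind these values were 294, 324 and 233 reads in the PBS group and 630, 843 and 571 reads in the DT group. The mean level rose from 11.3 ± 1.96 to 26.6 ± 1.47 CPM, a log2 fold change of 1.24 (SE 0.13, 95% interval 0.93 to 1.54, limma adjusted p = 0.00521). On the scale of the fit this was a 2.35-fold difference. It passed under all 17 alternatives run, with log2 fold changes of 1.14 to 1.37 and adjusted p-values from 1.66e-13 to 0.0395. In TPM, the share of transcripts after division by transcript length, the level was 6.89 ± 1.06 in the PBS group and 16.4 ± 0.81 in the DT group. The smallest p-value of an exact two-sided permutation test with 3 libraries in each group is 0.1, and *Il1r1* TPM reached it.

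Beside the *Il1r1* levels stand the marker sums of other cell types. The border macrophage sums given above did not overlap between the groups. The 6 choroid plexus markers summed to 173, 852 and 47.2 CPM in the PBS libraries and to 1486, 977 and 532 CPM in the DT libraries. These sums overlapped between the groups, with all 6 values higher after DT and none passing the test. The 7 endothelial markers summed to 628 to 958 CPM in the PBS group and 503 to 595 CPM in the DT group, with all 7 values lower after DT and none passing the test. The 5 ependymal markers summed to 172 to 215 CPM and to 225 to 381 CPM, and none of them passed either. Mural markers summed to 488 to 730 CPM in the PBS group and 566 to 708 CPM in the DT group, and fibroblast markers to 26.9 to 38.9 CPM and 24.8 to 38.4 CPM. The 5 neuron markers summed to 164 to 193 CPM in the PBS group and 141 to 248 CPM in the DT group, and none passed. The part of these cells in the level of *Il1r1* was not tested.

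*Il1rap*, the accessory chain shared by the receptors for IL-1, IL-33 and IL-36 (chr16:26581704-26730117, plus strand), did not pass the test. Its level was 14.3, 13.1 and 20.6 CPM in the PBS libraries and 12.7, 17.03 and 13.4 CPM in the DT libraries. The groups overlapped, and the highest value was that of PBS replicate 3. The log2 fold change was -0.14 (SE 0.19, 95% interval -0.57 to 0.29, limma adjusted p = 0.850), and without PBS replicate 3 it was 0.06. The ratio of *Il1r1* to *Il1rap* TPM was 0.854, 0.676 and 0.442 in the PBS libraries and 1.94, 1.43 and 1.37 in the DT libraries. In every PBS library the accessory chain was thus the more abundant transcript per length, and in every DT library the receptor chain was. The mean ratio was 0.657 ± 0.207 in the PBS group and 1.58 ± 0.313 in the DT group. The mean log2 ratios of the groups differed by 1.299, which is 2.46-fold between geometric means (exact two-sided permutation test, p = 0.1, the smallest possible). In limma on TPM, the log2 fold change was 1.25 for *Il1r1* and -0.04 for *Il1rap*. The ratio thus mostly restates the difference in *Il1r1* and is not a separate result.

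**Figure D1:**
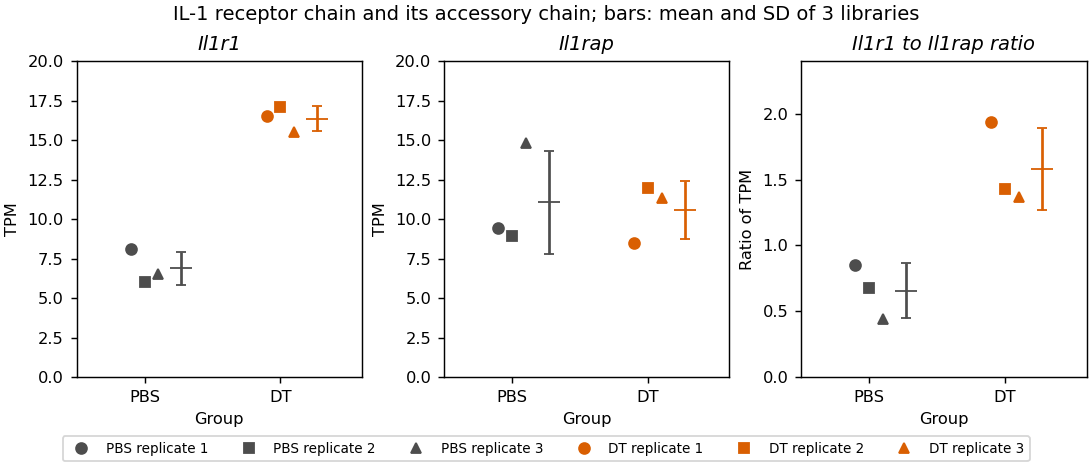
Level of *Il1r1* and of *Il1rap* in TPM and the ratio of the first to the second in each of the 6 libraries, with the mean and SD of each group of 3 as bars. *Il1r1* and the ratio lie higher in all DT libraries, with mean ratios of 0.657 and 1.58, whereas the *Il1rap* values of the groups overlap.

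*Il1rl1*, which encodes the receptor chain for IL-33 and lies at chr1:40429570-40465415 on the plus strand, was at the limit of detection. It had 8, 0 and 11 reads in the PBS libraries and 0 reads in every DT library. The groups overlapped, since PBS replicate 2 also had none. A count of 0 over the DT group allows a level of up to 0.0392 CPM (3 reads over the group, for counting error only). The pooled PBS level was 6.33-fold that floor, with the counting error of the PBS reads left out. This ratio was 3.72-fold without PBS replicate 3, 3.79-fold without DT replicate 2 and 11.2-fold without PBS replicate 2. When genes of any level were tested, its adjusted p was 0.507 in limma.

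*Il18*, an activator of lymphocyte interferon-γ production that is made as an inactive precursor (chr9:50554827-50581840, plus strand), had the highest level of the members per transcript length. Its level was 308, 343 and 288 TPM in the PBS libraries and 284, 299 and 235 TPM in the DT libraries. The groups overlapped, and DT replicate 3 held the lowest value. In CPM the log2 fold change was -0.21 (SE 0.10, 95% interval -0.45 to 0.02, limma adjusted p = 0.521). *Il18* overlaps *Bco2* and *Tex12*, which lie on the opposite strand, and the library kit and the mapping kept strand.

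*Il33*, the alarmin ligand of ST2 (chr19:29925114-29960718, plus strand), came next in TPM. It stood at 126, 112 and 98.3 TPM in the PBS libraries and at 110, 106 and 107 TPM in the DT libraries. The DT values lay within the range of the PBS values. The log2 fold change in CPM was -0.06 (SE 0.10, 95% interval -0.28 to 0.16, limma adjusted p = 0.866), and it was 0.04 without PBS replicate 1. In the libraries in which the ligand was abundant, the reads of its receptor chain thus numbered 11 at most.

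The IL-1 ligands themselves were scarce. *Il1a* (chr2:129299610-129309972, minus strand) had 13, 29 and 25 reads in the PBS libraries and 3, 22 and 15 reads in the DT libraries. The ranges overlapped, and DT replicate 1 was the lowest. The log2 fold change was -0.86 with a wide 95% interval of -2.12 to 0.40 (SE 0.55, limma adjusted p = 0.644), and it was -0.27 without DT replicate 1 and -0.33 with a pseudocount of 1. *Il1b* (chr2:129364570-129371139, minus strand) had 3, 2 and 2 reads in the PBS libraries and 3, 12 and 8 reads in the DT libraries, too few to be tested under the filter. The highest PBS count equalled the lowest DT count. The pooled counts were 7 and 23 reads, a ratio of 3.29 with a 95% interval of 1.37 to 9.07 that covers counting error only and not the spread between libraries. When genes of any level were tested, limma gave *Il1b* a p of 0.0479 before and 0.532 after adjustment. The antisense gene *Il1bos* overlaps *Il1b*. Beside these counts, the microglial marker sums were lower and the border macrophage marker sums higher in all DT libraries. The 6 monocyte and neutrophil markers summed to 1.24 to 2.34 CPM in the PBS group and to 0.96 to 1.24 CPM in the DT group. Of these, *Ly6c2* had 27, 28 and 40 reads in the PBS libraries and 17, 38 and 24 reads in the DT libraries. *Ccr2* had 0, 16 and 11 reads in the PBS libraries and 5, 0 and 3 reads in the DT libraries. *Plac8*, *S100a8*, *S100a9* and *Retnlg* were at 0 in all 6 libraries. The part of macrophages in the *Il1b* reads was not tested.

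*Irak2*, a kinase-like protein that sustains signalling after receptor engagement (chr6:113638467-113695026, plus strand), had 94.7, 87.8 and 85.4 CPM in the PBS libraries and 72.1, 69.4 and 71.3 CPM in the DT libraries. All DT libraries lay below all PBS libraries, and the DT values were close together. The means were 89.3 ± 4.84 and 70.9 ± 1.39 CPM, a log2 fold change of -0.33 (SE 0.06, 95% interval -0.48 to -0.18), with a limma adjusted p of 0.0815. On the recovered reads the same difference of -0.33 passed with the exact test of edgeR (adjusted p = 0.0269) and with DESeq2 (adjusted p = 0.00451) but not with the quasi-likelihood test of edgeR (adjusted p = 0.0682). The adjusted p ranged from 0.00451 to 0.341 over all alternatives. The gene model *Gm43912* overlaps *Irak2* on the same strand.

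*Irak4*, the kinase that starts the cascade at MyD88 (chr15:94543643-94581815, plus strand), had 8.84, 9.92 and 9.32 CPM in the PBS libraries and 12.4, 11.99 and 10.8 CPM in the DT libraries. All DT values were above all PBS values, by less than those of *Il1r1*. The means were 9.36 ± 0.54 and 11.7 ± 0.80 CPM, and the log2 fold change of 0.32 did not pass the test (SE 0.12, 95% interval 0.05 to 0.59, limma adjusted p = 0.404). *Twf1* overlaps *Irak4* on the opposite strand. *Irak1*, which is phosphorylated by IRAK4 (chrX:74013914-74023918, minus strand), had 88.1, 59.4 and 69.1 CPM in the PBS libraries and 61.2, 75.9 and 56.0 CPM in the DT libraries. The groups overlapped widely, and the log2 fold change was -0.16 (SE 0.16, 95% interval -0.51 to 0.20, limma adjusted p = 0.776).

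Per transcript length, the members spanned a wide range of levels. In the PBS group the order of mean TPM was *Il18* at 313, *Il33* at 112, *Irak2* at 81.8, *Irak1* at 55.4, *Il1rap* at 11.1, *Irak4* at 9.70, *Il1r1* at 6.89, *Il1a* at 1.26, *Il1b* at 0.202 and *Il1rl1* at 0.158. Neighbours in this order had ranges that did not overlap, except *Il1rap* with *Irak4* and *Il1b* with *Il1rl1*. In the DT group *Il1r1*, at 16.4 TPM, stood above *Irak4* at 12.2 and *Il1rap* at 10.6, with no overlap between *Il1r1* and *Irak4*. The other members kept their places, and the ranges overlapped for *Irak4* with *Il1rap* and for *Il1a* with *Il1b*. Among the genes tested, the mean TPM of *Il1r1* stood at the percentile 24.2 in the PBS group and 41.0 in the DT group, while *Il18* stood at 97.5 and 96.9.

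**Figure D2:**
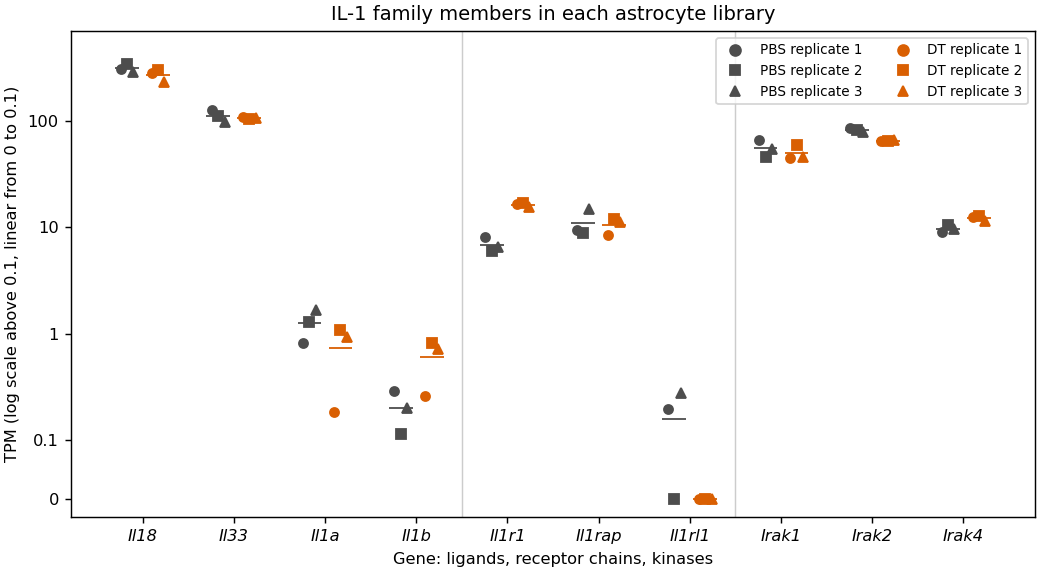
Level of each member in TPM in each of the 6 libraries, 3 PBS and 3 DT, on an axis that is logarithmic above 0.1 and linear below, with short lines at the group means. *Il18* and *Il33* lie at the top in all libraries, *Il1r1* shows separate groups with means of 6.89 and 16.4 TPM, and *Il1rl1* is at 0 in all DT libraries.

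Most other ligand, receptor and antagonist genes of the family had few reads or none, apart from *Il1rapl1*, *Il18bp* and *Sigirr*. Of the 14 other ligands, antagonists and receptors sought, 13 were listed, 3 were tested and none passed, while 0.713% of all genes tested did. The median log2 fold change of the 3 was -0.14 against -0.01 over all genes tested. *Il1r2*, which encodes a decoy receptor that binds IL-1 without signalling, had 0 reads in each PBS library and 5, 11 and 4 reads in the DT libraries. *Il1rl2* likewise had 0 reads in each PBS library and 4, 8 and 8 reads in the DT libraries. On the same strand, the gene model *Gm37347* overlaps *Il1r2* and *Gm17970* overlaps *Il1rl2*, and their part in these reads was not tested. For *Il1r2* and *Il1rl2*, the neighbours of *Il1r1*, the pooled DT level was 6.67-fold the PBS floor of 3 reads over the group. The counting error of the DT reads is left out of this ratio. With genes of any level tested, the limma adjusted p was 0.0964 for *Il1r2* and 0.0841 for *Il1rl2*. *Il1rn*, the IL-1 receptor antagonist, had 3 reads in DT replicate 3 and none elsewhere. The IL-18 receptor chains had 3 reads of *Il18r1* in PBS replicate 1 and 4 reads of *Il18rap* in DT replicate 2 only, in libraries in which *Il18* had 1574 reads or more. *Il18bp*, which encodes a soluble protein that binds IL-18, was measured at 3.86 ± 0.15 and 4.18 ± 0.28 CPM, a log2 fold change of 0.11 (limma adjusted p = 0.864). For the orphan-type receptor *Il1rapl1* the log2 fold change was -0.14 (limma adjusted p = 0.842), and for *Sigirr*, an inhibitory receptor of the family, it was -0.55 (limma adjusted p = 0.710). *Il1rapl2* had 0, 11 and 6 reads in the PBS libraries and 4, 21 and 4 reads in the DT libraries. The ligand and antagonist genes *Il36b*, *Il36g*, *Il36rn* and *Il1f10*, the first 3 of them listed under older symbols, had no read in any library.

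**Figure D3:**
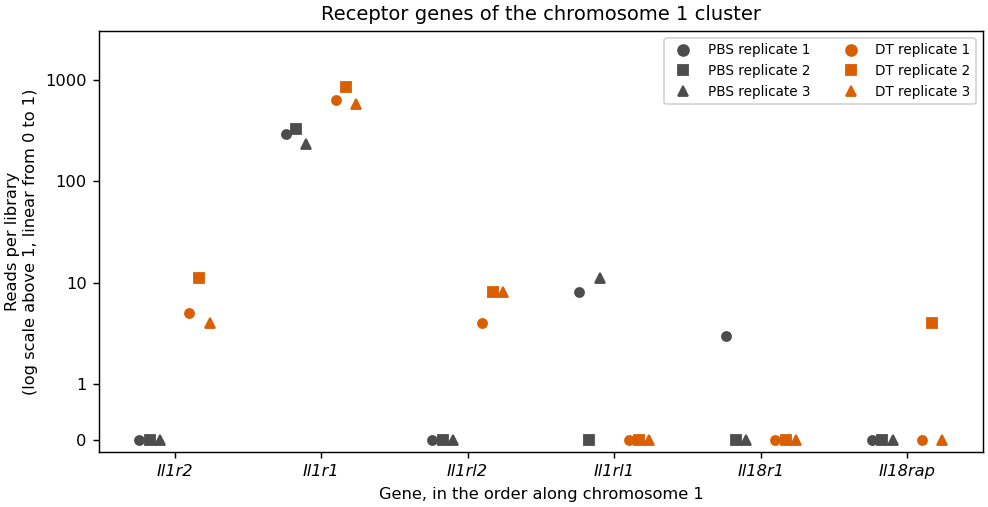
Recovered reads, on an axis that is logarithmic above 1 and linear below, of the 6 receptor genes in their order along chromosome 1 in each of the 6 libraries, 3 PBS and 3 DT. *Il1r1* stands far above its neighbours, with 233 to 843 reads, and reads of *Il1r2* and *Il1rl2* are found in all 3 DT libraries and in no PBS library.

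Genes that act below the receptors did not pass the test. All 16 adaptors, ubiquitin ligases and kinases were tested and none passed, while 0.713% of all genes tested passed in either direction. At that share, the lack of a call in so short a list does not set it apart. The log2 fold changes of the 16 genes lay between -0.13 and 0.48 with a median of -0.03. The largest value was that of *Myd88*, the adaptor of the whole receptor family, at 9.44, 9.16 and 8.50 CPM in the PBS libraries and 12.9, 12.8 and 12.1 CPM in the DT libraries. The groups did not overlap, and its log2 fold change was 0.48 (SE 0.11, 95% interval 0.22 to 0.74, limma adjusted p = 0.163). The 4 genes of the list with the highest CPM, which is not set per length, had group means, for PBS and DT in turn, of 113 and 113 CPM for the ubiquitin ligase gene *Peli2*, 103 and 101 CPM for *Tab2*, 101 and 98.0 CPM for *Tollip*, and 101 and 92.7 CPM for *Map3k7*, which encodes the kinase TAK1. Of 9 genes of inflammasomes and cytokine processing, 5 were tested and none passed, beside the same 0.713% of all genes tested. The median log2 fold change of the 5 was -0.29. *Casp1*, the protease that matures IL-1β and IL-18, was measured at 1.14 ± 0.47 and 1.22 ± 0.42 CPM. The log2 fold change was -0.61 for *Nlrp3* (limma adjusted p = 0.739) and -0.60 for *Aim2* (limma adjusted p = 0.510), and it was -0.29 for *Gsdmd* (limma adjusted p = 0.799) and -0.01 for *Pycard* (limma adjusted p = 0.991).

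Among 22 genes known to be induced by IL-1, 18 were tested and 5 passed as higher after DT, while 0.555% of all genes tested did. None passed as lower, and the median of the log2 fold changes was 1.14 against -0.01 over all genes tested. *Ccl2*, *Ccl7* and *Cxcl2* reached the required mean level through the DT libraries, and the list was written with earlier results of these data known. The count and the median are therefore a description. Beside this list, the border macrophage marker sums were 38.8 to 59.6 CPM in the PBS libraries and 96.7 to 111 CPM in the DT libraries, and the part of these cells in the levels of the list was not tested. The 5 genes were the complement gene *C3*, the neutrophil chemoattractants *Cxcl5* and *Cxcl1*, the monocyte chemoattractant *Ccl2* and the adhesion molecule *Icam1*. The log2 fold changes were 1.34 for *C3* (limma adjusted p = 0.00214) and 2.42 for *Cxcl5* (limma adjusted p = 0.00245), and both passed under all 17 alternatives. *Icam1* was at 1.08 (limma adjusted p = 0.0174), *Cxcl1* at 2.09 (limma adjusted p = 0.0223) and *Ccl2* at 2.74 (limma adjusted p = 0.0314). Each of the latter 3 lost the call when PBS replicate 2 or any DT library was left out, with limma adjusted p-values of up to 0.0967, 0.107 and 0.138, and *Cxcl1* also lost it without PBS replicate 3. With single libraries left out, the log2 fold changes were 0.96 to 1.196 for *Icam1*, 1.88 to 2.22 for *Cxcl1* and 2.28 to 3.06 for *Ccl2*. A pseudocount of 1 gave 1.27 for *Cxcl1* and 1.61 for *Ccl2*, and the calls held. *Icam1* and *Ccl2* lost it without the variance trend as well, and *Ccl2* in TPM.

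The 4 genes of the same list with the highest CPM did not pass. *Vcam1*, an adhesion molecule, averaged 409 and 399 CPM in the PBS and DT groups (limma adjusted p = 0.906), and *Sod2*, the mitochondrial superoxide dismutase, averaged 120 and 117 CPM (limma adjusted p = 0.877). The NF-kappa B inhibitor genes *Nfkbia* and *Nfkbiz* had DT values above all PBS values, with log2 fold changes of 0.27 (limma adjusted p = 0.380) and 0.37 (limma adjusted p = 0.211). *Il6*, *Csf3*, *Saa3* and *Ccl20* had no read in any library. These genes also respond to signals other than IL-1, and the part of IL-1 in their levels was not measured.

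**Figure D4:**
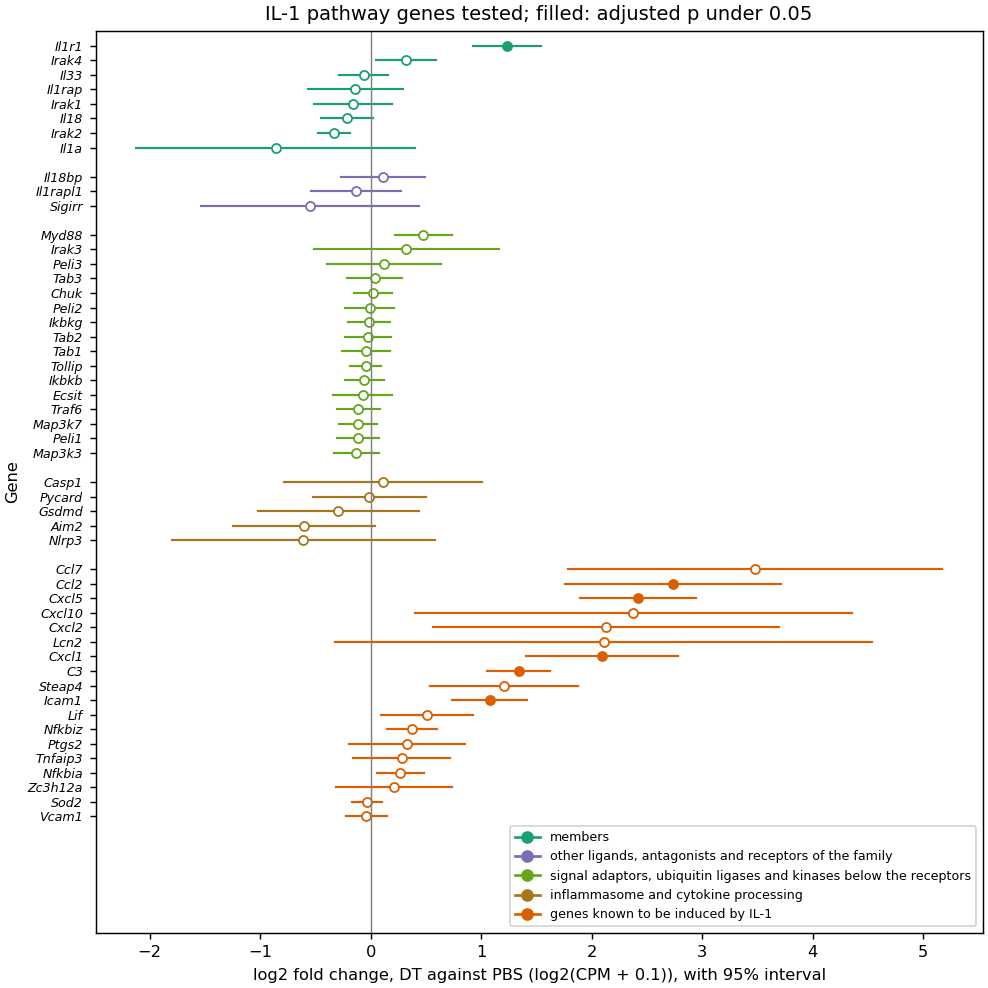
Log2 fold change, DT against PBS, of the 8 members and of the tested genes of the 4 other lists, coloured by list, each point the limma estimate and each bar its 95% interval, filled where the adjusted p passed. The interval of *Il1r1*, from 0.93 to 1.54, lies to the right of those of the other members. The adaptors, ubiquitin ligases and kinases lie between -0.13 and 0.48, the highest being *Myd88*. The 5 other filled points are all among the genes known to be induced by IL-1.

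The genes whose levels followed *Il1r1* most closely over the 6 libraries were *Plce1*, *A2m*, *Stk40*, *Rgl1* and *Ip6k3*, with Pearson r of log2(CPM + 0.1) between 0.994 and 0.996. Of 15136 other genes tested, 107 had an r of at least 0.95. The 6 points share their libraries and fall into 2 groups, so these values are given as a description. The mean level of *A2m*, a protease inhibitor, was 18.5 CPM in the PBS group and 83.4 CPM in the DT group, and that of *Plce1*, a phospholipase, was 114 and 206 CPM.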

How the data were processed

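RNA of hippocampal astrocytes isolated by MACS was sequenced in 3 PBS and 3 DT libraries. The authors trimmed reads with Trim Galore 0.5.0, mapped them to mm10 with HISAT2 2.1.0 using strand, removed rDNA reads with bedtools 2.25.0, and quantified genes with StringTie 1.3.5 and edgeR 3.24.3. For each gene the authors deposited 1 CPM and 1 TPM value per library. The deposited signal is CPM relative to scaled library sizes, whose columns sum to 980428 to 1026170, whereas plain CPM had been assumed when the test was chosen. The authors also deposited log2 fold changes, p-values and q-values of their own comparison, and these were not used. Of the 24421 gene names, 27 had been turned into dates.

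Log2(CPM + 0.1) was compared for the 15137 genes whose CPM averaged at least 0.5, with limma 3.58.1 in R 4.3.3 (variance trend, two-sided, Benjamini-Hochberg adjustment, threshold 0.05), and the test was tested on simulated data. Fold changes on this scale understate those of low genes. Whole reads were recovered from the steps of the CPM values (100% within 0.1 read). They come from StringTie and may be estimates. Genes at 0 were bounded by 3 reads over the group. Ratios of reads have exact conditional 95% intervals, and intervals and floors cover counting error only. P-values measure the spread between pools.

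The members and lists were chosen with earlier results of these data known. Named are the members, other listed genes that passed, up to 4 abundant genes per list, receptor, decoy and antagonist genes at 3 reads or fewer, and the 5 genes most like *Il1r1*. *Myd88*, *Nlrp3*, *Ccl7*, *Cxcl2* and the listed ligands and induced genes without reads were named after their values had been seen. Alternatives were DESeq2 1.42.0 and edgeR 4.0.16 (exact and quasi-likelihood tests) on recovered reads, TPM in place of CPM, quantile normalization, leaving out each library, pseudocounts of 0.5 and 1, a filter at 2 CPM or none, limma without the variance trend, and a block for the replicate number. Promoter sequences are those of RefSeq.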

Additional observations from a re-analysis of the deposited data

How the results depend on the processing

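The call of *Il1r1* held under every alternative run, and its log2 fold change was 1.14 to 1.37 with single libraries left out. Over all genes tested, 84 were higher and 24 lower after DT. Without the variance trend these counts were 35 and 11, with the exact test of edgeR 191 and 72, and with DESeq2 227 and 98. They were 39 to 72 and 9 to 20 with single libraries left out, the higher count being lowest without DT replicates 1 (39) or 2 (40) and the lower count being at most 11 when a single PBS library was left out or without DT replicate 2. The quasi-likelihood test of edgeR on recovered reads called 87 and 24. *Irak2* passed as lower, at -0.33, with the exact test of edgeR and with DESeq2, which made 1 member lower in each. *Il1rap* turned to 0.0581 without PBS replicate 3 (range -0.27 to 0.0581) and *Il33* to 0.0367 without PBS replicate 1 (range -0.16 to 0.0367). Of the other listed genes, 5 passed as higher, against 3 without the variance trend, 8 with the exact test of edgeR, and 2 to 6 with single libraries left out (2 without PBS replicate 2 or a single DT library). The ratio of the pooled PBS level of *Il1rl1* to the DT floor was 3.72 to 11.2. The causes were not tested. A mean CPM of at least 2 left *Il1a* and *Cxcl1* untested.

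Deviations of libraries with the same number correlated at 0.115, 0.0105 and 0.118, and 4 of 6 libraries correlated best with their own number. These values do not decide whether the numbers pair the samples. No label says that they do, and the main test used no block. With the replicate number as a block, 79 genes were higher and 30 lower, and *Il1r1* had an adjusted p of 0.0111 in limma. The depth of 1 read was 0.0301 to 0.046 CPM, so that *Il1b*, *Il1rl1* and the receptors for IL-18 lay near the limit of detection.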

Other observations

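The ratio of CPM to TPM of a gene, divided by that of the median gene of the library, follows the transcript length used for that gene in that library. For *Il1rap* it was 1.39, 1.40 and 1.31 in the PBS libraries and 1.38, 1.37 and 1.12 in the DT libraries. The highest was 1.24 times the lowest, a larger spread than that of 99.0% of the 11200 genes with at least 5 CPM in every library. The median spread of those genes was 1.002. For *Irak1* the spread was 1.08, larger than that of 96.4% of genes, and for *Il1r1* it was 1.01. The *Il1rap* value of DT replicate 3 was the lowest, and the groups overlapped. *Il1rap* has 7 transcripts in GENCODE M21, and which of them were present in which library was not tested. The TPM of *Il1rap*, and with it the ratio of *Il1r1* to *Il1rap*, depends on this length, and the log2 difference of that ratio was 1.38 when it was taken in CPM instead.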
